A study of Mus musculus with 15 samples.

Results

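The genes described are 32 genes of fatty acid uptake and oxidation, chosen by symbol and function with earlier results of these data known, and grouped by the step they serve: 5 in uptake, 2 in activation and acyl-CoA release, 5 in the carnitine shuttle, 15 in beta-oxidation (9 in the core spiral, 3 for unsaturated chains and 3 in electron transfer) and 5 in regulation. All 32 had a row in the table of 14272 named genes, and all 32 passed the filter on low values that kept 14059 genes. Transcripts were measured by RNA sequencing of quadriceps from male DBA/2J-mdx mice, which lack dystrophin and serve as a model of Duchenne muscular dystrophy. All 3 groups carried the mdx mutation, and each had 5 libraries. Vehicle mice were injected intraperitoneally with DMSO alone, 7 times weekly. Weekly mice had prednisone, a synthetic glucocorticoid, in 1 of the 7 injections of each week (1 mg/kg) and DMSO in the other 6. Daily mice had prednisone at that dose in all 7. The labels give the age as 6 months in the protocol and as about 7 months in the sample description. No healthy or uninjected mice were analysed here. Nothing in the labels ties each library to its own animal, and p-values here therefore speak only of the spread between libraries, part or all of which may be technical.

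Long-chain fatty acids reach muscle from triglyceride-rich lipoproteins, which lipoprotein lipase splits in the capillary. They enter the fibre through membrane transporters, are bound by a cytosolic carrier protein and are activated to acyl-CoA. The acyl group is carried into mitochondria as acylcarnitine and is then shortened in repeated rounds of dehydrogenation, hydration, a further dehydrogenation and thiolysis. Nuclear receptors of the PPAR family and the coactivator encoded by Ppargc1a are known to drive transcription of these enzymes, and glucocorticoids are known to alter fuel use in muscle.

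Levels are given in CPM, read counts scaled to a fixed library total with no correction for gene length. Depth, as recovered from the values, ran from 2780768 to 11052552 reads. The level of 3 reads was at most 1.08 CPM, below every group mean of the 32 genes. Of the other genes named, Acot1 in daily (mean 0.679 CPM) and Ucp1 in vehicle (0.113 to 0.730 CPM) were below it. The vehicle libraries lay closest together, although above sampling noise: chi-square over degrees of freedom was 1.5 to 2.01 for vehicle pairs, 19.2 to 88.6 for weekly pairs and 4.61 to 211 for daily pairs. A pair of libraries stood apart. Weekly 4 was the shallowest, and its 5 fibroblast markers summed to 18581 CPM, where the remaining weekly libraries had 1595 to 2415 CPM. Most of that sum was the collagens Col3a1 (10610 CPM) and Col1a1 (7723 CPM). The remaining markers Pdgfra, Dcn and Lum were at most 125, 188 and 39.3 CPM in any weekly library. In vehicle they were at most 74.7, 206 and 37.1 CPM. Daily 3 was low across the table: 11877 of 12287 genes, and 32 of 32 of the genes described, were below the mean of the other daily libraries. Counts over the 32 genes, their steps and the main other lists are therefore also given without weekly 4 and daily 3, a setting in which more of the whole table passed. Markers of striated muscle summed to 110869 to 212347 CPM in all 15 libraries, and none of the 8 was at 0 in any.

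In vehicle muscle the genes covered a wide range of transcript levels per length. The highest mean level per kilobase of the longest coding transcript was that of Pdk4 at 372 CPM per kb, followed by Fabp3 at 274, Hadhb at 125 and Cd36 at 102 CPM per kb. Among the transporters and enzymes, Cpt1b was at 10.9 CPM per kb and Acot2 at 8.88 CPM per kb. The 3 lowest were the regulators Ppargc1a at 6.75, Ppard at 4.59 and Ppara at 2.12 CPM per kb.

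**Figure D1:**
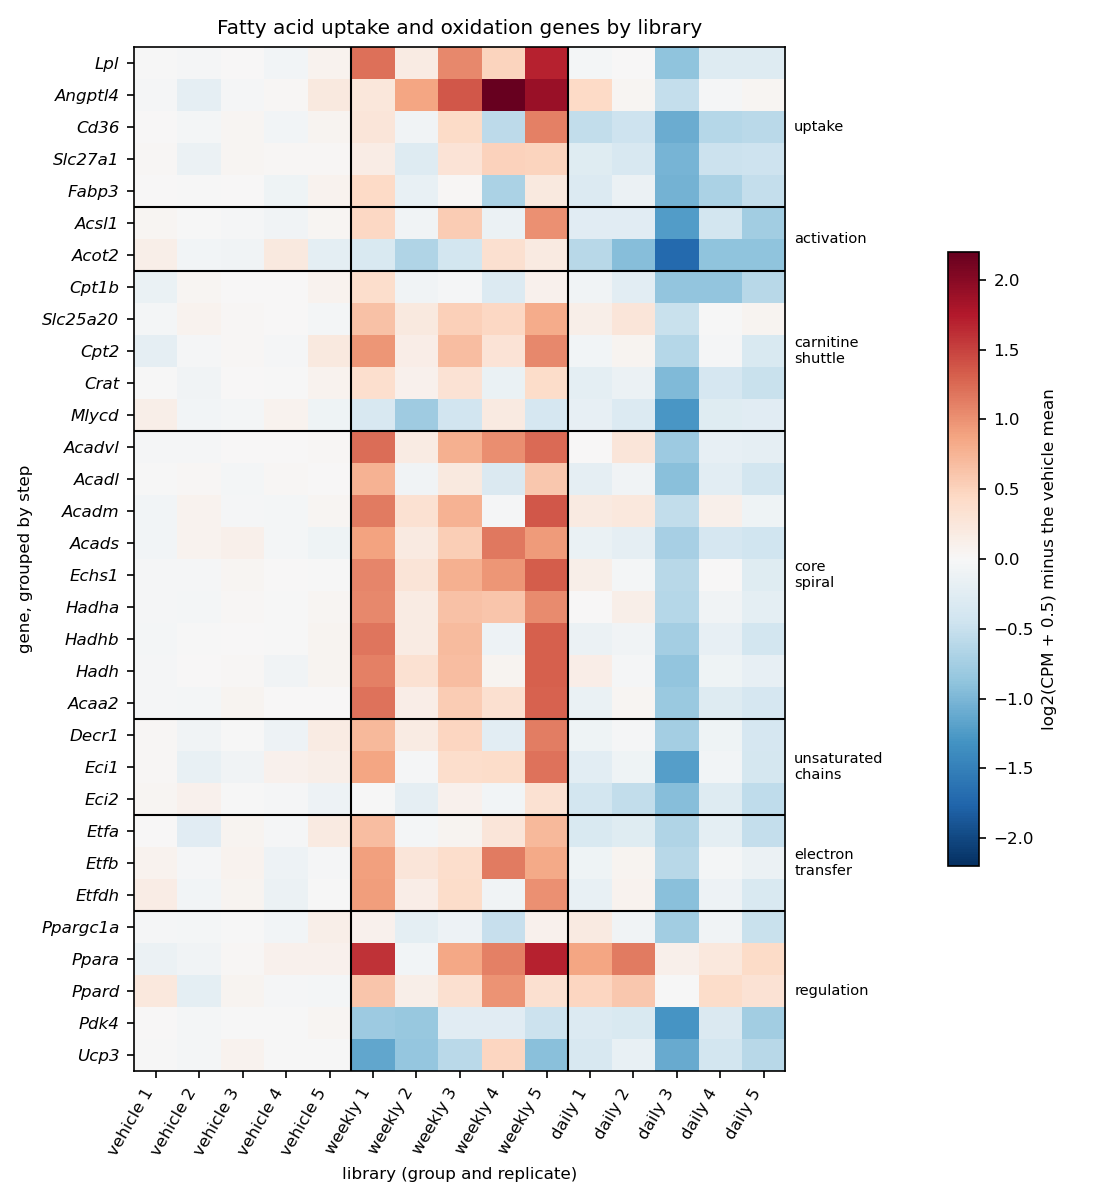
Heat map of the 32 genes (rows, grouped by step) in 15 libraries (columns). The colour is log2(CPM + 0.5) minus the mean of the vehicle libraries, red for higher and blue for lower. The vehicle columns are nearly white, weekly 1 and weekly 5 are the reddest through the core spiral, daily 3 is the bluest column, and Pdk4 and Ucp3 are blue in most treated libraries.

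With weekly prednisone, 13 of the 32 genes rose against vehicle and 0 fell in limma's test (adjusted p under 0.05 over all 14059 genes, Benjamini-Hochberg; 21 of 32 had an unadjusted p under 0.05; edgeR called 13 risen and 3 fallen, DESeq2 14 and 3). Of all genes tested, 6.99% rose and 1.07% fell in limma, 7.16% and 4.11% in edgeR, and 8.25% and 5.29% in DESeq2. The genes that rose were Lpl, Angptl4, Slc25a20, Cpt2, Acadvl, Acadm, Acads, Echs1, Hadha, Hadh, Acaa2, Etfb and Ppara. The median change of the 32 was 0.48 on the log2 scale, against 0.17 for all genes tested. In 9 of the 32 all 5 weekly libraries were above all 5 vehicle libraries, as they were in 11.8% of all genes. The median gene of the table was itself 0.17 higher in weekly than in vehicle. With TMM scaling, which brings that shift to 0.01, 9 of the 32 rose and 3 fell (Pdk4, Ucp3 and Mlycd), against 5.73% and 4.18% of all genes. Without weekly 4 and daily 3, 22 rose and 3 fell, against 20.3% and 3.63% of all genes. Leaving out weekly 4 alone gave 18 risen and 3 fallen (9.39% and 1.83% of all genes), and leaving out weekly 5 gave 7 and 0 (4% and 0.846%). Leaving out vehicle 1, 2, 3 or 4 gave 8 and 0 (3.93% to 4.15% and 0.664% to 0.678%). Averaging the 5 vehicle libraries into 1 sample left the log2 changes as they were (Lpl 0.93, Angptl4 1.32), but the calls did not hold. Hardly any gene of the whole table passed in that setting, where vehicle has no spread of its own.

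With daily prednisone, 0 of the 32 rose and 2 fell against the same vehicle libraries, Acot2 and Eci2 (limma; 15 of 32 had an unadjusted p under 0.05; edgeR called 1 risen and 4 fallen, DESeq2 1 and 7). Over all genes tested, 1.76% of genes rose and 2.13% fell in limma, 5.88% and 3.59% in edgeR, and 6.54% and 4.81% in DESeq2. The median change of the 32 was -0.31, against -0.08 for all genes. In 13 of the 32 all 5 daily libraries were below all 5 vehicle libraries, as they were in 8.82% of all genes. With TMM scaling 1 rose (Ppard) and 4 fell (Pdk4, Acot2, Eci2 and Slc27a1), against 5.61% and 3.47% of all genes. Without weekly 4 and daily 3, 1 rose and 9 fell, against 11% and 6.36% of all genes. The count was sensitive to single libraries: leaving out weekly 4 alone, which is in neither group but shares in the estimate of the spread, gave 0 risen and 11 fallen (4.19% and 6.4% of all genes), and leaving out vehicle 1, 2, 3 or 4 or daily 5 gave 1 fallen (1.26% to 1.44% of all genes).

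The regimens were also compared directly. In daily against weekly, 0 of the 32 rose and 25 fell in limma's test, against 0.484% and 8.24% of all genes (26 of 32 had an unadjusted p under 0.05; edgeR called 0 risen and 17 fallen, DESeq2 0 and 20). Over all genes, edgeR called 2.08% risen and 3.24% fallen, and DESeq2 2.92% and 4.53%. The 7 that did not pass in limma were Fabp3, Mlycd, Ppargc1a, Ppara, Ppard, Pdk4 and Ucp3. The median difference was -0.76, against -0.24 for all genes. In 11 of the 32 all 5 daily libraries were below all 5 weekly libraries, against 6.98% of all genes. With TMM scaling 13 fell and 0 rose, against 2.64% and 2.08% of all genes, and without weekly 4 and daily 3, 26 fell and 1 rose (Ucp3), against 11.7% and 3.01% of all genes. This comparison uses the weekly libraries of the first comparison and the daily libraries of the second, so the 3 counts do not stand independently of each other.

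**Figure D2:**
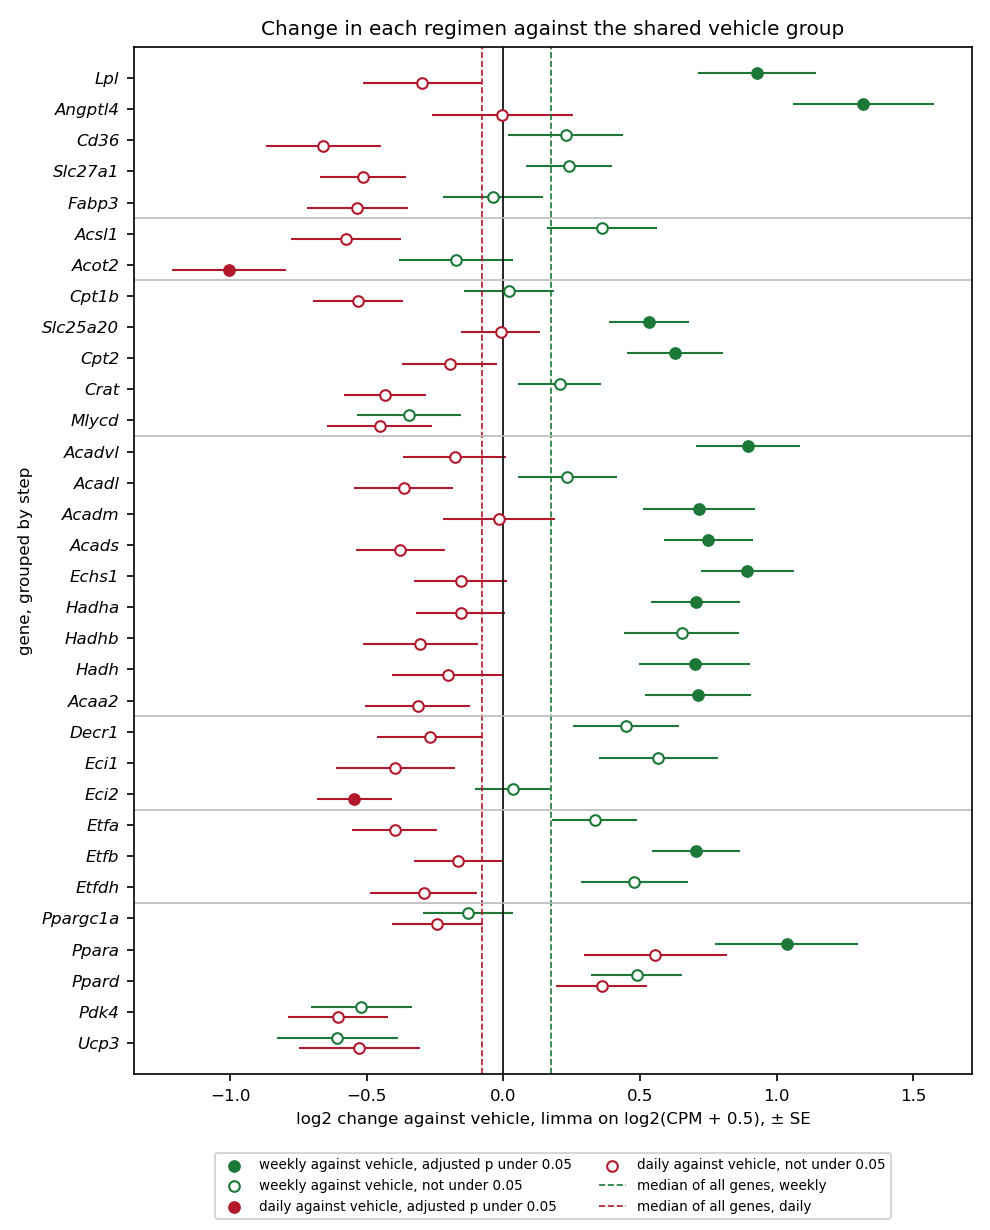
Log2 change against vehicle (horizontal axis, limma estimate ± SE) of each gene in weekly (green) and daily (red). Filled points have an adjusted p under 0.05, open points do not, and dashed lines mark the median change of all genes. The 13 filled green points lie between 0.53 and 1.32 and the 2 filled red points at -1.0 and -0.55. Both estimates use the same vehicle libraries.

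Of the 5 uptake genes, Lpl and Angptl4 rose in weekly and none rose or fell in daily (3 of 5 had an unadjusted p under 0.05; edgeR called 1 lower and DESeq2 2). In the setting lacking weekly 4 and daily 3, 3 of the 5 rose in weekly and 3 fell in daily. Of all genes, 6.99% rose in weekly as deposited, and in that setting 20.3% rose in weekly and 6.36% fell in daily. Lpl (lipoprotein lipase, chr8:68880491-68907448, GRCm38, plus strand) stood at 238, 233, 239, 229 and 253 CPM in vehicle 1 to 5, 552, 272, 496, 334 and 773 CPM in weekly 1 to 5 and 232, 241, 129, 195 and 195 CPM in daily 1 to 5. All weekly libraries were above all vehicle libraries, and all daily libraries were below all weekly libraries. The weekly rise was 0.93 (SE 0.22, limma adjusted p = 0.00993), a mean of 485 ± 197 CPM (SD, n = 5) against 238 ± 9.06 CPM (SD, n = 5), and the daily level was -1.22 (SE 0.22, limma adjusted p = 0.00147) relative to weekly. Angptl4 encodes a secreted inhibitor of lipoprotein lipase, is a known target of PPARs and of the glucocorticoid receptor, and lies at chr17:33773750-33781830 on the minus strand. Its level was 30.2, 26.8, 30.3, 31.4 and 35.9 CPM in vehicle 1 to 5, 36.7, 56.7, 80.6, 142 and 117 CPM in weekly 1 to 5 and 41.96, 31.7, 21.2, 30.3 and 31.9 CPM in daily 1 to 5. It had the largest weekly change of the 32, 1.32 (SE 0.26, limma adjusted p = 0.00268), and all weekly libraries exceeded all vehicle libraries. In daily it was at 31.4 ± 7.36 CPM (SD, n = 5), inside the range of vehicle in 3 of 5 libraries. Lpl and its inhibitor did not take the same order across weekly libraries: weekly 1 had the second highest Lpl and the lowest Angptl4 of the 5, with 15.04 CPM of Lpl per CPM of Angptl4, against 2.35 in weekly 4 and 7.03 to 8.70 in vehicle.

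The membrane and cytosolic steps of uptake did not pass the test in either regimen against vehicle. Cd36, the fatty acid translocase, was at 348, 335, 357, 334 and 359.9 CPM in vehicle 1 to 5, 416, 328, 467, 232 and 745 CPM in weekly 1 to 5 and 239, 254, 162, 225 and 229 CPM in daily 1 to 5. Its weekly libraries lay on both sides of vehicle, and its daily libraries were all below. The daily change was -0.66 (SE 0.21, limma adjusted p = 0.0874), and it was under 0.05 without weekly 4 (-0.66, limma adjusted p = 0.00174) or weekly 5 (-0.66, limma adjusted p = 0.0263). Slc27a1, the transporter FATP1, was at 86.5, 77.7, 87.01, 86.6 and 85.7 CPM in vehicle 1 to 5, 94.5, 69.8, 105, 121 and 119.7 CPM in weekly 1 to 5 and 70.1, 66.3, 41.5, 60.7 and 61.4 CPM in daily 1 to 5, with every daily library below every vehicle library and a daily change of -0.52 (SE 0.16, limma adjusted p = 0.0732). With TMM scaling this was -0.43 (SE 0.10, limma adjusted p = 0.0124), and it was also under 0.05 without weekly 2 (-0.52, limma adjusted p = 0.0396) or weekly 4 (-0.52, limma adjusted p = 0.0113). Cd36 and Slc27a1 both fell in daily against weekly, by -0.89 (SE 0.21, limma adjusted p = 0.0134) and -0.76 (SE 0.16, limma adjusted p = 0.00579), although with TMM scaling Cd36 did not pass (limma adjusted p = 0.0914). Fabp3, the heart and muscle fatty acid binding protein, was at 212 to 236 CPM in vehicle, 138 to 305 in weekly and 109 to 207 in daily. Its daily change was -0.53 (SE 0.18, limma adjusted p = 0.118) against vehicle and -0.50 (SE 0.18, limma adjusted p = 0.0868) against weekly, and without weekly 4 both were under 0.05 (-0.53, limma adjusted p = 0.00769, and -0.66, limma adjusted p = 0.00148). Its exons overlap those of Zcchc17 and Gm10570 on the opposite strand.

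Activation was represented by Acsl1, the main long-chain acyl-CoA synthetase of muscle, and Acot2, a mitochondrial thioesterase that releases the fatty acid again. Neither rose in weekly (0 of 2 at an unadjusted p under 0.05, and 0 by edgeR and by DESeq2), and Acot2 fell in daily. Leaving out weekly 4 and daily 3, 1 of the 2 rose in weekly and 1 fell in daily, against 20.3% and 6.36% of all genes. Acsl1 stood at 295, 285, 282, 272 and 295 CPM in vehicle 1 to 5, 392, 271, 421, 261 and 577 CPM in weekly 1 to 5 and 241, 239.6, 122, 216 and 168 CPM in daily 1 to 5. Its daily libraries were all below its vehicle and its weekly libraries, with -0.58 (SE 0.20, limma adjusted p = 0.123) against vehicle and -0.94 (SE 0.20, limma adjusted p = 0.00697) against weekly. The change against vehicle was under 0.05 without weekly 4 (-0.58, limma adjusted p = 0.0111). Acot2 (chr12:83987861-83993873, plus strand) measured 21.3, 18.5, 18.4, 22.7 and 16.6 CPM in vehicle 1 to 5, 15.4, 12.03, 14.5, 24.8 and 22.2 CPM in weekly 1 to 5 and 12.6, 9.92, 5.58, 10.3 and 10.3 CPM in daily 1 to 5. All daily libraries were below all vehicle libraries, and all but daily 1 were also below all weekly libraries. The daily change was -1.0 (SE 0.21, limma adjusted p = 0.00608), the largest fall of the 32, and with TMM scaling it was -0.92 (SE 0.15, limma adjusted p = 0.000775). It was under 0.05 in 27 of 28 alternative settings. Against weekly it was -0.83 (SE 0.21, limma adjusted p = 0.0187), which was not under 0.05 without weekly 5 (limma adjusted p = 0.0589). Acot2 has a near-identical neighbour, Acot1, at 1.90 ± 0.688 CPM (SD, n = 5) in vehicle and 0.679 ± 0.342 CPM (SD, n = 5) in daily, so reads of the 2 genes may have been divided between them and the value of Acot2 is uncertain.

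In the carnitine shuttle the translocase Slc25a20 and the inner-membrane transferase Cpt2 rose in weekly, while Cpt1b, the muscle form of the outer transferase that limits the rate of entry, did not. Of the 5 shuttle genes, 3 rose and 1 fell in weekly without weekly 4 and daily 3, and 2 fell in daily. In that setting 20.3% of all genes rose and 3.63% fell in weekly, and 6.36% fell in daily. Slc25a20 was at 41.9, 45.4, 43.8, 43.2 and 41.9 CPM in vehicle 1 to 5, 68.1, 50.4, 62.4, 59.3 and 76.9 CPM in weekly 1 to 5 and 47.2, 52.03, 30.7, 42.9 and 45.03 CPM in daily 1 to 5. The weekly libraries were all above vehicle by a modest margin, 0.53 (SE 0.15, limma adjusted p = 0.0264). This was not under 0.05 without vehicle 1, 2, 3, 4 or 5, or weekly 3 or 5 (limma adjusted p between 0.0532 and 0.0817). Cpt2 stood at 37.4, 42.1, 43.5, 42.03 and 49.96 CPM in vehicle 1 to 5, 84.2, 47.2, 68.6, 52.9 and 89.8 CPM in weekly 1 to 5 and 40.99, 44.7, 27.6, 42.3 and 33.7 CPM in daily 1 to 5, with a weekly change of 0.63 (SE 0.18, limma adjusted p = 0.0293) and weekly 2 inside the vehicle range. With TMM scaling Cpt2 did not pass (0.45, limma adjusted p = 0.075), nor without vehicle 1, 2, 3 or 4, or weekly 1, 3 or 5 (limma adjusted p between 0.0579 and 0.0922). Cpt1b had 28.6, 32.7, 31.8, 31.9 and 33.2 CPM in vehicle 1 to 5, 41.4, 30.04, 31.2, 25.5 and 33.9 CPM in weekly 1 to 5 and 29.8, 26.8, 17.04, 17.2 and 20.5 CPM in daily 1 to 5. Its weekly level straddled vehicle, with weekly 1 and weekly 5 above the vehicle range and weekly 4 below it. The daily change of Cpt1b was -0.53 (SE 0.16, limma adjusted p = 0.0763), and it was under 0.05 without weekly 4 (-0.53, limma adjusted p = 0.0139) or daily 1 (-0.65, limma adjusted p = 0.0348).

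Against weekly, 4 of the 5 shuttle genes fell in daily, as did 8.24% of all genes. Cpt2 differed by -0.83 (SE 0.18, limma adjusted p = 0.00643), with no overlap between the groups. Slc25a20 differed by -0.54 (SE 0.15, limma adjusted p = 0.0255) and Cpt1b by -0.55 (SE 0.16, limma adjusted p = 0.0408). Neither was under 0.05 with TMM scaling (limma adjusted p = 0.122 and 0.321), Slc25a20 did not pass without weekly 3 or 5 (limma adjusted p between 0.0543 and 0.0756), and Cpt1b did not pass without vehicle 1, 2, 3, 4 or 5, or weekly 1, 3 or 5, or daily 3, 4 or 5 (limma adjusted p between 0.0553 and 0.0911). Crat, the carnitine acetyltransferase that buffers acetyl-CoA, was at 265, 254, 269, 266 and 282 CPM in vehicle 1 to 5, 344, 283, 331, 242 and 354 CPM in weekly 1 to 5 and 230.4, 243, 136, 207 and 189 CPM in daily 1 to 5. Its daily libraries were all below vehicle, and the change was -0.43 (SE 0.15, limma adjusted p = 0.121), or -0.43, limma adjusted p = 0.0262 without weekly 4. Crat fell against weekly by -0.64 (SE 0.15, limma adjusted p = 0.0129), which TMM scaling moved to an adjusted p of 0.0676 in limma. Crat shares exon positions with Dolpp1 on the other strand, and Cpt1b with the same-strand model Gm44502.

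Mlycd, which did not pass as deposited, encodes malonyl-CoA decarboxylase, the enzyme that removes the inhibitor of the outer transferase. It was at 84.2, 73.4, 74.1, 80.9 and 71.3 CPM in vehicle 1 to 5, 59.9, 44.2, 57.2, 88.5 and 58.9 CPM in weekly 1 to 5 and 67.9, 62.4, 31.1, 63.6 and 64.7 CPM in daily 1 to 5. Weekly libraries other than weekly 4 were below all vehicle libraries, as were all daily libraries. The weekly change was -0.35 (SE 0.19, limma adjusted p = 0.271) as deposited, -0.52 (SE 0.13, limma adjusted p = 0.0149) with TMM scaling and -0.48, limma adjusted p = 0.0427 without weekly 4. The daily change was -0.45 (SE 0.19, limma adjusted p = 0.229), and -0.45, limma adjusted p = 0.0466 without weekly 4.

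Of the 9 core spiral genes, 7 rose in weekly, 0 rose or fell in daily (1 had an unadjusted p under 0.05; edgeR and DESeq2 called 0), and 9 of 9 fell in daily against weekly. Of all genes, 6.99% rose in weekly and 8.24% fell in daily against weekly. The median change of the 9 in weekly was 0.71, which is 0.54 above the median of all genes. The rise was uneven across libraries: the median of the 9 relative to vehicle was 1.12 in weekly 1, 0.18 in weekly 2, 0.68 in weekly 3, 0.35 in weekly 4 and 1.31 in weekly 5. In daily it was 0.01, -0.03, -0.74, -0.17 and -0.26 in libraries 1 to 5, the lowest being daily 3. With TMM scaling 4 of 9 rose in weekly, and 5 of 9 fell in daily against weekly, against 5.73% and 2.64% of all genes. All 9 rose in weekly without weekly 4 and daily 3, where 0 passed in daily and 9 fell in daily against weekly. In that setting 20.3% of all genes rose in weekly and 11.7% fell in daily against weekly.

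Of the 4 acyl-CoA dehydrogenases, which carry out the first oxidation on chains of falling length, those for very long, medium and short chains rose in weekly. Acadvl (very long chains, chr11:70010183-70015411, minus strand) measured 90.9, 90.7, 92.96, 92.1 and 93.5 CPM in vehicle 1 to 5, 217, 104, 159, 188 and 219 CPM in weekly 1 to 5 and 92.8, 111, 52.97, 81.6 and 79.8 CPM in daily 1 to 5. Weekly libraries were all above vehicle, and the change was 0.89 (SE 0.19, limma adjusted p = 0.00491), a mean of 178 ± 47.7 CPM (SD, n = 5) against 92.05 ± 1.21 CPM (SD, n = 5). Acadm (medium chains, chr3:153922357-153944632, minus strand) was at 126, 138, 129, 128 and 136 CPM in vehicle 1 to 5, 292, 166, 224, 129 and 340.0 CPM in weekly 1 to 5 and 151, 155, 90.6, 143 and 123 CPM in daily 1 to 5, with weekly 4 inside the vehicle range and a change of 0.72 (SE 0.21, limma adjusted p = 0.0338). The call on Acadm was lost with TMM scaling (0.54, limma adjusted p = 0.0941) and without vehicle 1, 2, 3, 4 or 5, or weekly 1, 3 or 5 (limma adjusted p between 0.0642 and 0.103). Acads (short chains) had 37.4, 41.1, 41.8, 37.8 and 36.1 CPM in vehicle 1 to 5, 72.3, 44.6, 56.98, 87.7 and 74.8 CPM in weekly 1 to 5 and 35.2, 33.8, 23.1, 29.7 and 28.4 CPM in daily 1 to 5. It rose by 0.75 (SE 0.16, limma adjusted p = 0.00611), and all weekly libraries were above all vehicle and all daily libraries. Acadl, for long chains, did not rise in weekly at 133, 136, 129, 136 and 134 CPM in vehicle 1 to 5, 227, 127, 154, 107 and 201 CPM in weekly 1 to 5 and 117, 127, 70.5, 113 and 100.2 CPM in daily 1 to 5, with weekly 2 and weekly 4 below vehicle.

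The next enzymes are the hydratase Echs1, the dehydrogenase Hadh and the thiolase Acaa2, which act on shorter chains, and the trifunctional protein, whose 2 subunits Hadha and Hadhb act on long chains. Echs1 (chr7:140105710-140116476, minus strand) was at 40.3, 40.4, 42.7, 41.7 and 41.03 CPM in vehicle 1 to 5, 87.8, 50.1, 71.6, 81.6 and 105 CPM in weekly 1 to 5 and 45.01, 40.1, 26.95, 41.2 and 34.2 CPM in daily 1 to 5 and rose by 0.89 (SE 0.17, limma adjusted p = 0.00207). Hadh stood at 79.5, 81.7, 82.8, 77.1 and 84.5 CPM in vehicle 1 to 5, 176, 103, 129.8, 84.5 and 202 CPM in weekly 1 to 5 and 89.9, 79.6, 44.5, 75.97 and 71.2 CPM in daily 1 to 5. All weekly libraries but weekly 4 were above vehicle, and the change of 0.70 (SE 0.20, limma adjusted p = 0.0365) was not under 0.05 with TMM scaling (0.52, limma adjusted p = 0.0843) or without vehicle 1, 2, 3, 4 or 5, or weekly 1, 3 or 5 (limma adjusted p between 0.0678 and 0.112). Acaa2 measured 74.4, 74.2, 79.2, 76.3 and 76.7 CPM in vehicle 1 to 5, 174, 84.2, 113, 97.5 and 189 CPM in weekly 1 to 5 and 68.8, 78.4, 43.1, 62.4 and 58.9 CPM in daily 1 to 5, with all weekly libraries above vehicle and a change of 0.71 (SE 0.19, limma adjusted p = 0.0262). That call was lost with TMM scaling (0.53, limma adjusted p = 0.0671) and without vehicle 1, 2, 3, 4 or 5, or weekly 1 or 5 (limma adjusted p between 0.0537 and 0.0839).

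The 2 subunits of the trifunctional protein are transcribed in opposite directions from neighbouring start sites, Hadha at chr5:30118304-30155162 on the minus strand and Hadhb at chr5:30155248-30184593 on the plus strand. Hadha was at 224, 219.8, 230.1, 225 and 234 CPM in vehicle 1 to 5, 469, 256, 354, 344 and 467 CPM in weekly 1 to 5 and 228, 247, 147, 215 and 195 CPM in daily 1 to 5. It rose in weekly by 0.70 (SE 0.16, limma adjusted p = 0.00978), with no overlap. Hadhb was at 248, 254, 259.6, 254 and 269 CPM in vehicle 1 to 5, 582, 291, 416, 238 and 640.3 CPM in weekly 1 to 5 and 234, 244, 154, 228 and 194 CPM in daily 1 to 5. Its change was similar in size but did not pass, 0.65 (SE 0.21, limma adjusted p = 0.0578). It did pass without weekly 4 (0.84, limma adjusted p = 0.000178), weekly 2 (0.77, limma adjusted p = 0.023) or daily 3 (0.65, limma adjusted p = 0.0429). The ratio of Hadha to Hadhb was 0.865 to 0.902 in vehicle and 0.729 to 0.881 in 4 weekly libraries, but 1.44 in weekly 4. In daily it was 0.944 to 1.01. In weekly 4, Hadha was above and Hadhb below all vehicle libraries.

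**Figure D3:**
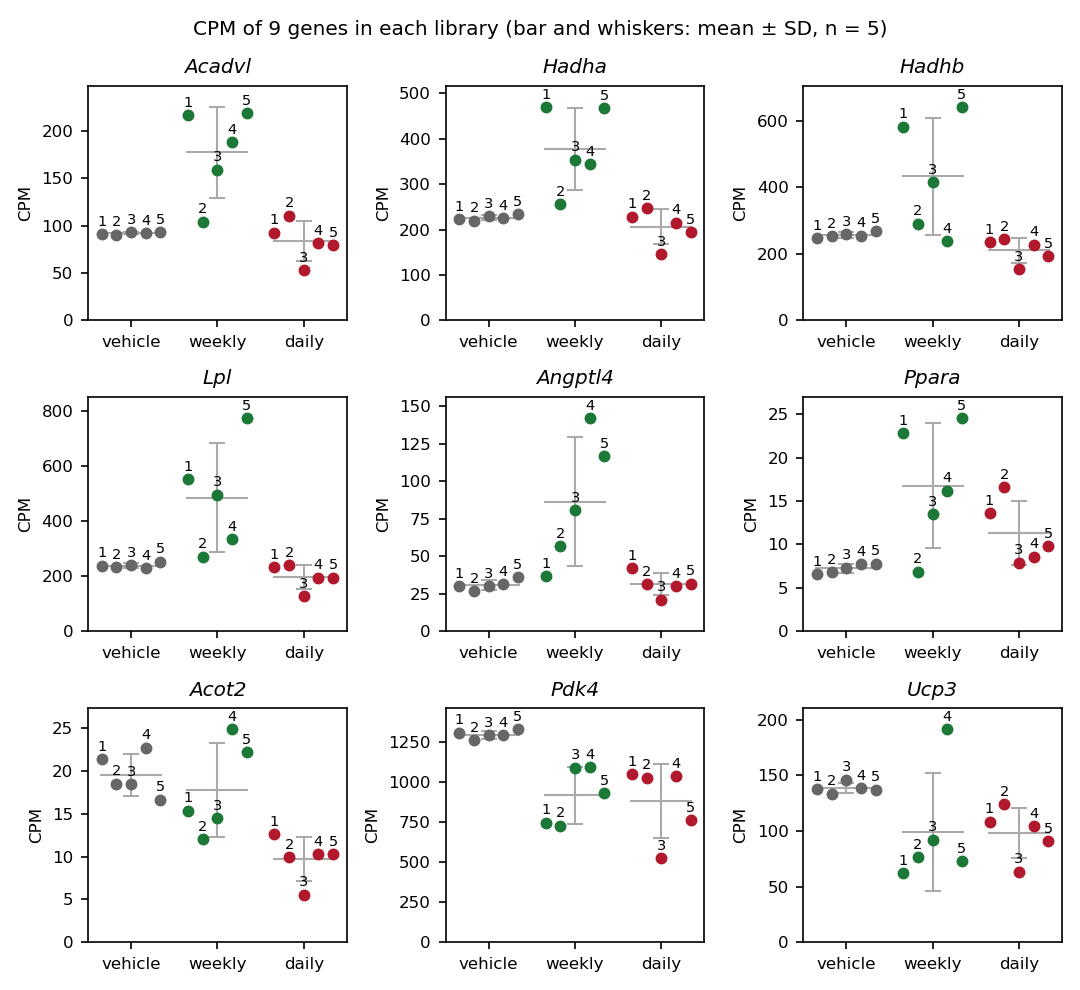
Level in CPM (vertical axes, from 0) of 9 genes in each library, numbered by replicate, with the mean and SD of each group in grey. Weekly levels of Acadvl, Hadha, Lpl and Angptl4 lie above all vehicle libraries. Hadhb in weekly 4 does not, and Ucp3 in weekly 4 is the highest of all 15 libraries. Acot2 and Pdk4 lie below vehicle in all daily libraries.

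In daily all 9 core spiral genes fell against weekly. The fall in daily against weekly was -1.07 (SE 0.19, limma adjusted p = 0.00149) for Acadvl, -1.05 (SE 0.17, limma adjusted p = 0.000712) for Echs1, -1.13 (SE 0.16, limma adjusted p = 0.000345) for Acads and -0.86 (SE 0.16, limma adjusted p = 0.0028) for Hadha. For Acaa2 it was -1.03 (SE 0.19, limma adjusted p = 0.00264). These 5 were under 0.05 in all 28 alternative settings, as were Lpl, Angptl4 and Etfb. Hadh at -0.90 (SE 0.20, limma adjusted p = 0.00987) and Hadhb at -0.96 (SE 0.21, limma adjusted p = 0.00865) were not under 0.05 with TMM scaling (limma adjusted p = 0.0583 and 0.0701). The smallest differences were those of Acadl, -0.60 (SE 0.18, limma adjusted p = 0.0438), and Acadm, -0.73 (SE 0.21, limma adjusted p = 0.0308). Acadl lost the call without vehicle 1, 2, 3, 4 or 5, or weekly 1, 3 or 5, or daily 3, 4 or 5 (limma adjusted p between 0.0554 and 0.119), and Acadm without weekly 1, 3 or 5, or daily 3 or 5 (limma adjusted p between 0.0554 and 0.1). TMM scaling moved these 2 to 0.286 and 0.201 (limma adjusted p).

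The sequences before the RefSeq start sites of 4 core spiral genes are shown, all among the 7 of 9 that rose in weekly. Acadvl, Echs1 and Acadm were chosen because their windows held the motif AGGTCA, and Hadha for a stretch shared with Hadhb. RefSeq promoter windows of GRCm38.p6, from 250 bases before to 50 after each start, were matched by symbol for 26 of the 32 genes in 29 windows. Windows were searched on both strands for AGGTCA, the half-site recognised by PPARs and related nuclear receptors. It was present in windows of 5 of the 26 genes (Acadvl, Echs1, Acadm, Cd36 and Ucp3), or 5 of their 29 windows, and in 16.3% of all 32851 windows. Acads, Hadh and Hadha also rose in weekly and had windows without it. The first 3 below give the 250 bases before the start, with AGGTCA or its reverse complement TGACCT in capitals. They lie at chr11:70015429-70015678, chr7:140116422-140116671 and chr3:153944644-153944893, all on the minus strand and written 5′ to 3′. The fourth, at chr5:30154981-30155230 on the minus strand, shows in capitals the 228 bases that the windows of Hadha and Hadhb share, since their RefSeq start sites are 273 bases apart. The gene spans given above for Echs1 and Hadha reach into these stretches, so part of each lies inside the gene as placed there.
Acadvl: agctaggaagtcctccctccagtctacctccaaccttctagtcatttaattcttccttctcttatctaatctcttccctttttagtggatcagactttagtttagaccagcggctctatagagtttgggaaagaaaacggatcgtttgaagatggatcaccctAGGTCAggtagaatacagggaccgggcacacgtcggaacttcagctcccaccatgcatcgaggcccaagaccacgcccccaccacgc
Echs1: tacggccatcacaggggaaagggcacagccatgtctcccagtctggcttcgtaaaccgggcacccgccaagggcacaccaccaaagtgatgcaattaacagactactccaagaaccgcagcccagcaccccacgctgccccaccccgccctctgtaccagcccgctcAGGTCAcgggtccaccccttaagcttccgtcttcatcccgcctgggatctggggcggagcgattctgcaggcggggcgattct
Acadm: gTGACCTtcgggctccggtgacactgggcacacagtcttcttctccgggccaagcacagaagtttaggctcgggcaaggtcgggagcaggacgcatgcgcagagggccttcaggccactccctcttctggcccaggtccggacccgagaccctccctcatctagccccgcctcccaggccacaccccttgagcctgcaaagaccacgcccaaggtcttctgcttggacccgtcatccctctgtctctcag
Hadha: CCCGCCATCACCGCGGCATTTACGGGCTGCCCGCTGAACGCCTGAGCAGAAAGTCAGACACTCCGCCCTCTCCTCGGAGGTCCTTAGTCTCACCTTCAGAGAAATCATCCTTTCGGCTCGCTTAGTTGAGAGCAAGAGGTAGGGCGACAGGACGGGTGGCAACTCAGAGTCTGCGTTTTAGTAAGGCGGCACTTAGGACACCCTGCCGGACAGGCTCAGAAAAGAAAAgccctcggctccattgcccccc

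Counted from the RefSeq start site, the match began at position -87 in Acadvl, -83 in Echs1 and -249 in Acadm. In Ucp3, which did not rise, matches began at -149 and -44, and in Cd36 at -228. Longer motifs were not matched in any window of the 26 genes. These were TNAAGGTCA (1.28% of all windows), 2 half-sites AGGNCA in a row with 1 base between them, the DR1 element of PPARs (0.381%), AGAACA and TGTTCT with 3 bases between them, the full glucocorticoid response element (0.00913%), and its looser form of GNACA and TGTNC with 3 bases between them (0.475%). The first contains AGGTCA, and any match to the third would also match the fourth. CACGTG was found in Slc27a1 alone, and in 7.15% of all windows.

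Of the 3 genes for unsaturated chains none passed in weekly (2 had an unadjusted p under 0.05; edgeR and DESeq2 called 0 as well), and Eci2 fell in daily. Of the 3, 2 rose in weekly and 1 fell in daily without weekly 4 and daily 3, against 20.3% and 6.36% of all genes. Decr1, the dienoyl-CoA reductase, was at 82.9, 76.7, 80.5, 75.3 and 92.8 CPM in vehicle 1 to 5, 134, 92.1, 113, 69.4 and 177 CPM in weekly 1 to 5 and 76.03, 80.4, 48.2, 75.97 and 62.8 CPM in daily 1 to 5, and its weekly change of 0.45 (limma adjusted p = 0.155) was 0.62, limma adjusted p = 0.00467 without weekly 4. Eci1, an enoyl-CoA isomerase, had 24.7, 21.7, 23.1, 26.1 and 26.6 CPM in vehicle 1 to 5, 45.1, 24.1, 31.9, 32.4 and 56.4 CPM in weekly 1 to 5 and 20.8, 22.8, 10.2, 23.4 and 18.4 CPM in daily 1 to 5. Its weekly change was 0.57 (SE 0.22, limma adjusted p = 0.108), and it was under 0.05 without weekly 2 (0.71, limma adjusted p = 0.0337), weekly 4 (0.61, limma adjusted p = 0.0303) or daily 3 (0.57, limma adjusted p = 0.0372). Eci2, an isomerase found in mitochondria and peroxisomes, was at 49.2, 50.7, 47.2, 46.7 and 44.1 CPM in vehicle 1 to 5, 47.1, 41.5, 50.6, 45.7 and 60.2 CPM in weekly 1 to 5 and 35.6, 32.6, 24.6, 38.7 and 32.1 CPM in daily 1 to 5. Its weekly level covered the vehicle range, and its daily libraries were all below both other groups. The daily change was -0.55 (SE 0.14, limma adjusted p = 0.0242), which was not under 0.05 without vehicle 1, 2, 3 or 4, or daily 5 (limma adjusted p between 0.0597 and 0.078). Eci2 overlaps exons of Gm16984 on the opposite strand.

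Against weekly all 3 fell in daily, as did 8.24% of all genes. Eci1 differed by -0.96 (SE 0.22, limma adjusted p = 0.00973) and Eci2 by -0.58 (SE 0.14, limma adjusted p = 0.0136), both without overlap, and Decr1 by -0.72 (SE 0.19, limma adjusted p = 0.0271). With TMM scaling Eci1 alone of the 3 was under 0.05 (-0.70, limma adjusted p = 0.027). Eci2 was not under 0.05 without weekly 5 (limma adjusted p = 0.0507), and Decr1 not without weekly 3 or 5, or daily 3 or 5 (limma adjusted p between 0.0561 and 0.0832).

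Electron transfer flavoprotein takes electrons from the acyl-CoA dehydrogenases, and its oxidoreductase, encoded by Etfdh, passes them to ubiquinone. Of the flavoprotein's 2 subunits Etfb rose in weekly and Etfa did not pass. Of the 3 genes, 2 rose in weekly and 0 passed in daily without weekly 4 and daily 3. In that setting 20.3% of all genes rose in weekly, and 11% rose and 6.36% fell in daily. Etfb stood at 63.8, 58.9, 63.5, 55.9 and 59.1 CPM in vehicle 1 to 5, 113, 72.7, 78.4, 133 and 108 CPM in weekly 1 to 5 and 56.4, 63.03, 39.03, 58.2 and 54.9 CPM in daily 1 to 5. Weekly libraries were all above vehicle, highest in weekly 4, with 0.70 (SE 0.16, limma adjusted p = 0.00894). Etfa was at 70.4, 59.00, 72.9, 68.5 and 80.1 CPM in vehicle 1 to 5, 112, 68.04, 72.7, 83.8 and 114 CPM in weekly 1 to 5 and 55.3, 58.3, 44.1, 60.1 and 48.4 CPM in daily 1 to 5, with a weekly change of 0.33 (limma adjusted p = 0.187) and weekly 2 and weekly 3 inside the vehicle range. Etfdh was at 90.6, 77.1, 83.9, 73.8 and 80.1 CPM in vehicle 1 to 5, 153, 89.6, 108, 76.6 and 162 CPM in weekly 1 to 5 and 72.4, 85.04, 42.4, 74.9 and 64.01 CPM in daily 1 to 5, and its weekly change of 0.48 (limma adjusted p = 0.134) was 0.62, limma adjusted p = 0.00725 without weekly 4.

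None of the 3 passed in daily against vehicle (1 had an unadjusted p under 0.05; edgeR and DESeq2 called 0), and all 3 fell against weekly, as did 8.24% of all genes. The difference was -0.87 (SE 0.16, limma adjusted p = 0.00234) for Etfb and -0.73 (SE 0.15, limma adjusted p = 0.00624) for Etfa, both without overlap. For Etfdh it was -0.77 (SE 0.20, limma adjusted p = 0.0199), which was not under 0.05 without weekly 5 or daily 3 (limma adjusted p between 0.0606 and 0.0637). With TMM scaling Etfb was under 0.05 (limma adjusted p = 0.00764), while Etfa (0.0714) and Etfdh (0.113) were not.

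The regulators did not follow the enzymes as a group. Ppara rose in weekly, none of the 5 passed in daily, and none differed between daily and weekly in limma (0 of 5 also at an unadjusted p under 0.05, and 0 of 5 by edgeR and by DESeq2). In daily against vehicle an unadjusted p under 0.05 was seen for 4 of the 5, and 1 was called higher and 1 lower by edgeR and by DESeq2. Leaving out weekly 4 and daily 3, 2 rose and 2 fell in weekly, 1 rose and 2 fell in daily, and 1 rose in daily against weekly. The shares of all genes were 20.3% and 3.63%, 11% and 6.36%, and 3.01% in the same order. Ppara, the nuclear receptor PPAR alpha, was the lowest of the 32 per length and measured 6.57, 6.79, 7.33, 7.74 and 7.80 CPM in vehicle 1 to 5, 22.8, 6.88, 13.5, 16.2 and 24.5 CPM in weekly 1 to 5 and 13.6, 16.6, 7.90, 8.58 and 9.84 CPM in daily 1 to 5. It was above all vehicle libraries in 4 of 5 weekly libraries and in 5 of 5 daily libraries. The weekly change was 1.04 (SE 0.26, limma adjusted p = 0.0172), and without weekly 5 it was 0.87, limma adjusted p = 0.0596. The daily change was 0.56 (SE 0.26, limma adjusted p = 0.288). Ppard, the PPAR delta receptor that is abundant in muscle, was at 12.9 to 17.7 CPM in vehicle, 16.4 to 30.2 in weekly and 14.9 to 23.0 in daily. Its weekly change of 0.49 (SE 0.17, limma adjusted p = 0.073) was under 0.05 without weekly 2 (0.58, limma adjusted p = 0.0329) or daily 3 (0.49, limma adjusted p = 0.0306). Its daily change of 0.36 (SE 0.17, limma adjusted p = 0.28) was 0.45 (SE 0.13, limma adjusted p = 0.0385) with TMM scaling. Ppargc1a, the coactivator of oxidative genes, was at 41.8 to 47.7 CPM in vehicle, 30.6 to 46.6 in weekly and 25.4 to 50.3 in daily.

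Pdk4 and Ucp3 are classic transcripts of fasting and high fatty acid supply, and neither passed the test as deposited. Pdk4, the kinase that blocks pyruvate dehydrogenase and so spares glucose, was at 1309, 1262, 1293, 1291 and 1329.6 CPM in vehicle 1 to 5, 747, 728, 1091, 1094 and 931 CPM in weekly 1 to 5 and 1051, 1028, 525, 1039 and 763 CPM in daily 1 to 5. Every weekly and every daily library was below every vehicle library. The change was -0.52 (SE 0.18, limma adjusted p = 0.0821) in weekly and -0.60 (SE 0.18, limma adjusted p = 0.0718) in daily, and with TMM scaling it was -0.70 (SE 0.11, limma adjusted p = 0.000705) and -0.52 (SE 0.11, limma adjusted p = 0.00672). As deposited, the weekly change was under 0.05 without weekly 4 (-0.59, limma adjusted p = 0.0125) or daily 3 (-0.52, limma adjusted p = 0.0149), and the daily change without weekly 4 (-0.60, limma adjusted p = 0.00662). Ucp3, an inner-membrane carrier of the uncoupling protein family, was at 138, 134, 146, 138 and 137 CPM in vehicle 1 to 5, 62.3, 76.4, 92.2, 191 and 73.01 CPM in weekly 1 to 5 and 108, 124, 63.7, 104 and 91.03 CPM in daily 1 to 5. Weekly 4 was the highest of all 15 libraries, and the other 4 weekly libraries were below all vehicle libraries. The weekly change was -0.61 (SE 0.22, limma adjusted p = 0.0935), and without weekly 4 it was -0.88, limma adjusted p = 2.79e-05. With TMM scaling it was -0.79 (SE 0.18, limma adjusted p = 0.0107). The daily change was -0.53 (SE 0.22, limma adjusted p = 0.227), or -0.53, limma adjusted p = 0.00876 without weekly 4. The ratio of Acadvl to Pdk4 was 0.0695 to 0.0719 in vehicle, 0.143 to 0.291 in weekly and 0.0786 to 0.108 in daily. The 3 ranges did not overlap, but the pair was picked because its genes moved apart, which the separation only restates.

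A wider list of 95 pathway genes, drawn up with earlier results of these data known, had 92 tested members. In weekly 18 rose and 2 fell, in daily 2 rose and 3 fell, and in daily against weekly 1 rose and 40 fell (with TMM scaling 10 and 4, 2 and 4, and 4 and 20). The shares of all genes were 6.99% and 1.07%, 1.76% and 2.13%, and 0.484% and 8.24% in the same order. Without weekly 4 and daily 3 the counts of the list were 41 and 4, 3 and 9, and 4 and 42, against 20.3% and 3.63%, 11% and 6.36%, and 3.01% and 11.7% of all genes. Acaca, the acetyl-CoA carboxylase of fatty acid synthesis, had the largest weekly change of the list, with means of 569 ± 459 CPM in weekly and 68.5 ± 4.82 CPM in vehicle (SD, n = 5; log2 change 2.61, limma adjusted p = 0.000257). The binding proteins Fabp5 (1.66, limma adjusted p = 0.000881) and Fabp4 (1.15, limma adjusted p = 0.0282) rose in weekly, as did the acetyl-CoA synthetase Acss2 (1.16, limma adjusted p = 0.00268), the thioesterase Acot11 (1.72, limma adjusted p = 0.00312), the lipid droplet coat Plin2 (1.09, limma adjusted p = 0.0029) and Dgat2, which makes triglyceride (1.63, limma adjusted p = 0.0106). With TMM scaling Fabp4 did not pass (limma adjusted p = 0.0692). Pparg, the PPAR form that drives fat cell formation, did not pass (1.07, limma adjusted p = 0.0611).

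Of all genes, 6.99% rose in weekly as deposited and 5.73% with TMM scaling. Among the other genes of mitochondrial oxidation, 5 of 14 tested rose in weekly and 0 did with TMM scaling, where 8 had an unadjusted p under 0.05 as deposited. Hibch, an enzyme of valine breakdown (0.70, limma adjusted p = 0.033), and the acyl-CoA dehydrogenase Acad11 (0.56, limma adjusted p = 0.0418) were the 2 of smallest p, and with TMM scaling their adjusted p in limma was 0.0786 and 0.101. In daily against weekly 10 of the 14 fell, or 4 with TMM scaling, against 8.24% and 2.64% of all genes. Of 14 tested genes of peroxisomal oxidation 3 rose in weekly, as did 3 with TMM scaling, among them Scp2 (0.91, limma adjusted p = 0.00118) and Hsd17b4 (0.60, limma adjusted p = 0.0386). Without weekly 4 and daily 3, 8 of the mitochondrial and 9 of the peroxisomal genes rose in weekly, as did 20.3% of all genes.

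Cpt1a, the liver form of the outer transferase and a counterpart of Cpt1b, fell in both regimens, from 37.5 ± 1.71 CPM in vehicle to 21.8 ± 10.03 CPM in weekly and 19.8 ± 6.79 CPM in daily (SD, n = 5; log2 changes -0.88, limma adjusted p = 0.0415, and -0.99, limma adjusted p = 0.0324). Pdp1, the phosphatase that opposes Pdk4, fell in weekly (-0.62, limma adjusted p = 0.0152). In daily the transcription factor Foxo1 rose (0.78, limma adjusted p = 0.00414), and Ppargc1b, a coactivator related to Ppargc1a (-0.86, limma adjusted p = 0.0078), and G0s2, an inhibitor of lipolysis (-1.22, limma adjusted p = 0.0078), fell. The other genes of smallest p in daily did not pass against vehicle. They were the lipoprotein receptor Vldlr (-0.30, limma adjusted p = 0.351), the thioesterase Acot1 (-1.03, limma adjusted p = 0.125), the acyl-CoA synthetase Acsl3 (-0.30, limma adjusted p = 0.335), the carboxylase Acacb (-0.45, limma adjusted p = 0.149), Fabp4 (-0.86, limma adjusted p = 0.152), the mitochondrial enzymes Acad10 (-0.64, limma adjusted p = 0.0953) and Hsd17b10 (-0.37, limma adjusted p = 0.256), the peroxisomal enzyme Ehhadh (-0.85, limma adjusted p = 0.0763), the peroxisomal transporter Abcd2 (-0.63, limma adjusted p = 0.135) and the triglyceride lipase Pnpla2 (-0.74, limma adjusted p = 0.0864). Of the wider list Angptl8, Bbox1 and Acox2 were not analysed here.

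Fatty acid genes are shared between cell types, and in bulk tissue fewer cells of a type and less RNA per cell cannot be told apart. Adipocytes also express Lpl, Cd36, Acsl1, Slc27a1 and Angptl4, and Cpt1b is itself among the brown or beige markers used. The 12 adipocyte markers, all with a row and none at 0 in any library, summed to 838 to 886 CPM in vehicle and 478 to 912 CPM in daily. Plin4 was the largest of them in vehicle, with a median of 339 CPM there and 475 CPM in daily. Cfd had medians of 138 and 38.7 CPM and Adipoq 29.9 and 12.3 CPM. Of the 12 changes in daily, 2 were positive and 10 negative. In weekly 1 to 5 the sum was 1210.2, 1077, 1953, 1145 and 3327 CPM. Of the 12, 5 rose in weekly and 5 fell in daily, and 10 fell in daily against weekly, where the shares of all genes were 6.99%, 2.13% and 8.24%. With TMM scaling 2 rose in weekly, 1 rose and 5 fell in daily, and 9 fell in daily against weekly (5.73%, 5.61% and 3.47%, and 2.64% of all genes). Without weekly 4 and daily 3, 11 rose in weekly, 1 rose and 6 fell in daily, and 11 fell in daily against weekly (20.3%, 11% and 6.36%, and 11.7% of all genes). The 5 brown or beige markers with a row summed to 62.1 to 71.6 CPM in vehicle, 229, 79.2, 164, 57.5 and 416 CPM in weekly 1 to 5, and 31.3 to 60.9 CPM in daily. Among them Ucp1 was at 0.113 to 0.730 CPM in vehicle and 1.44 to 223 CPM in weekly. The core spiral was highest in weekly 5 and weekly 1, of which weekly 5 had the highest adipocyte sum and weekly 1 a sum near those of weekly 2 and weekly 4. Single adipocyte markers differed between these libraries. In weekly 1, 2 and 4, Fabp4 was at 388, 250 and 179 CPM and Pparg at 24.3, 19.5 and 6.83 CPM. The brown or beige sum was highest in weekly 5, then weekly 1, then weekly 3, the order of the 3 highest core spiral medians. The part of these markers in the results was not tested.

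**Figure D4:**
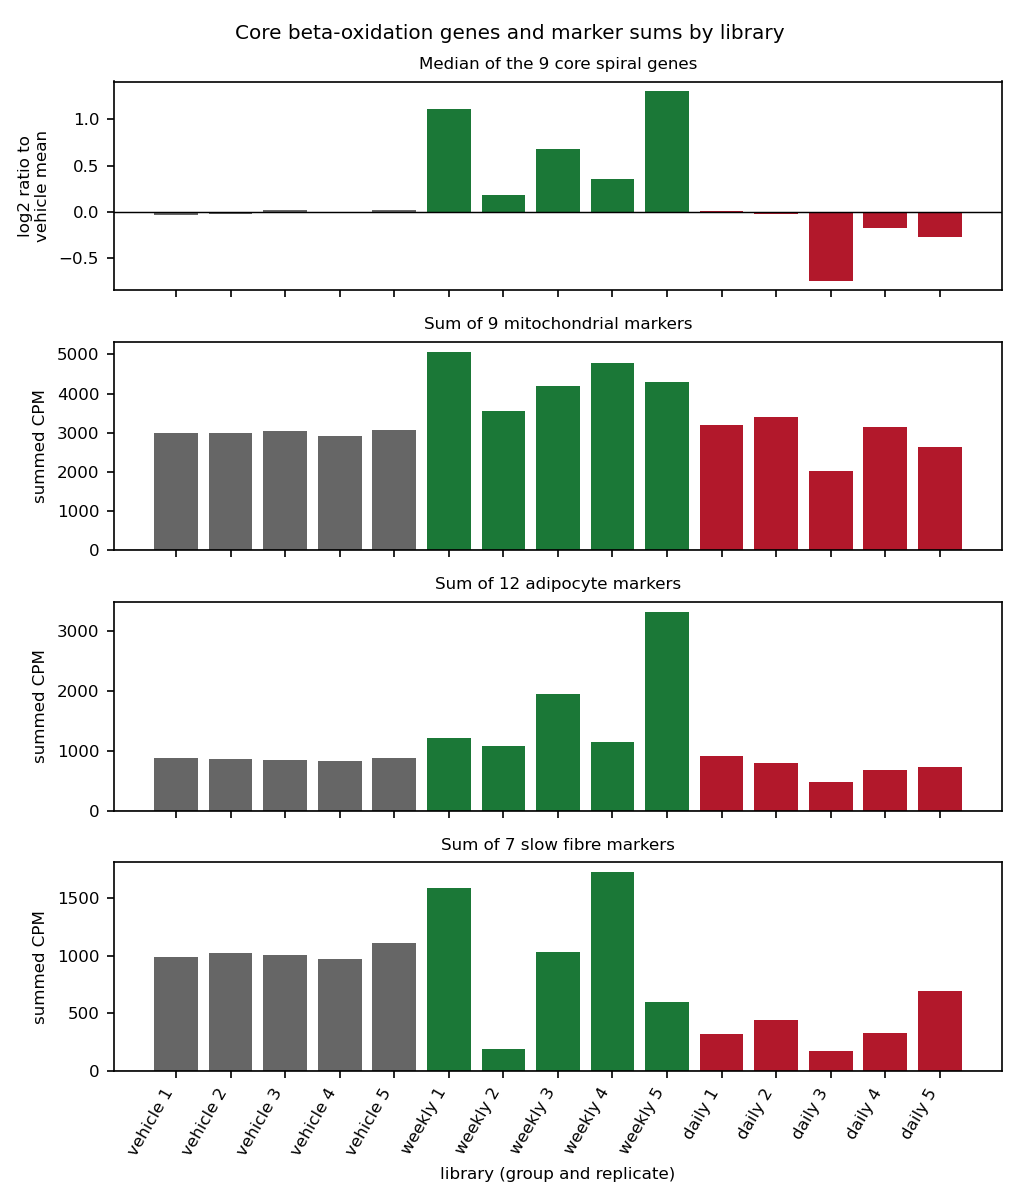
Bars by library, coloured by group: the median log2 ratio to the vehicle mean of the 9 core spiral genes, then the summed CPM of mitochondrial, adipocyte and slow fibre markers, all from 0. The core spiral and the mitochondrial sum are above vehicle in all 5 weekly libraries, the adipocyte sum is highest in weekly 5, and the slow fibre sum is below vehicle in all 5 daily libraries.

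The 9 markers of mitochondrial mass, which take no part in beta-oxidation, summed to 2930.0 to 3064 CPM in vehicle, 3565 to 5069 in weekly and 2031 to 3404 in daily. Of these 9, 6 rose in weekly, 0 passed in daily (0 also at an unadjusted p under 0.05, and 0 by edgeR and by DESeq2), and 6 fell in daily against weekly. With TMM scaling these counts were 5, 0 and 3, and without weekly 4 and daily 3 they were 7, 0 and 7. In these 3 settings, as deposited first, 6.99%, 5.73% and 20.3% of all genes rose in weekly. In daily against weekly 8.24%, 2.64% and 11.7% fell. The median weekly change of the 9 mitochondrial markers was 0.36 above that of all genes, against 0.54 for the core spiral. Markers of slow fibres, which rely more on fatty acids, summed to 970.1 to 1105 CPM in vehicle, 189 to 1722 in weekly and 172 to 697 in daily. Of these 7 markers 4 fell in daily, or 3 with TMM scaling, against 2.13% and 3.47% of all genes. In weekly 1 to 5 the slow fibre sum was 1582, 189, 1034, 1722 and 597 CPM. The core spiral median was 1.12, 0.18, 0.68, 0.35 and 1.31 in the same libraries. Weekly 2 was lowest in both, while weekly 4 had the highest slow fibre sum and weekly 5 the highest core spiral median. Endothelial markers summed to 201 to 217 CPM in vehicle, 211 to 357 in weekly and 126 to 196 in daily. For macrophage markers the sums were 379 to 413, 162 to 1583 and 228 to 475 CPM, and for fast fibre markers 59338 to 60755, 48537 to 81658 and 38839 to 59242 CPM, in the same order. Fibroblast markers were at 1428 to 1617 CPM in vehicle and 1473 to 2657 CPM in daily. They did not move together: Col1a1 was at 395 to 439 CPM in vehicle and 631 to 1123 in daily, and Dcn at 187 to 206 and 105 to 160 CPM. None of these markers was at 0 in any library, and their part in the results was not tested.

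Weekly 4 deviated from the other weekly libraries in a way that differed between genes. Of the 32 genes, 12 were above and 20 below the mean of the other weekly libraries. The highest were Ucp3 and Angptl4, and the lowest Cd36, Hadhb and Acadm. The deviation moved with GC content of the transcript (Pearson r = 0.57, Spearman rho = 0.55 over the 32 genes of 1 library), as it did over 12287 genes with a GC value (r = 0.42, rho = 0.45). Genes within a library are not independent replicates, and depth and composition are shared by all points. For daily 3 the same comparison gave r = -0.07 and rho = 0.05 over the 32 genes. Relative to the median of all genes, the median of the 32 was 0.65 above vehicle in weekly 1, 0.22 in weekly 3, 0.70 in weekly 5 and 0.00 in both weekly 2 and weekly 4. In the daily libraries it was between -0.36 and -0.15, daily 3 included at -0.30.

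**Figure D5:**
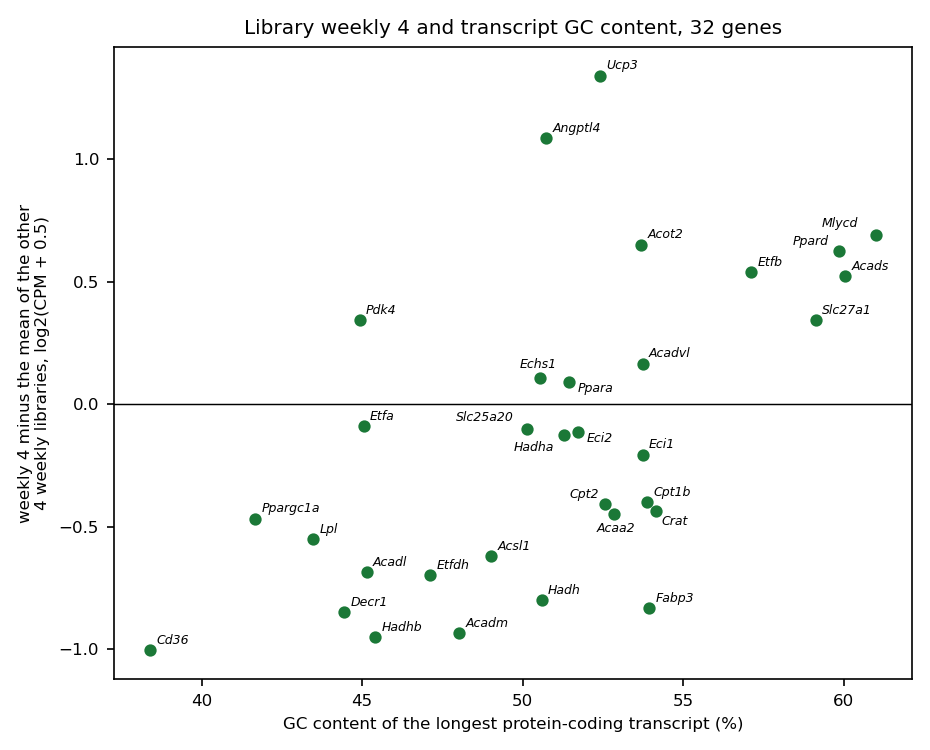
Each point is 1 of the 32 genes: GC content of its longest coding transcript (horizontal axis, percent) against the level in weekly 4 minus the mean of the other 4 weekly libraries (vertical axis, log2). Genes of higher GC tend to lie above 0, with Cd36 at the lower left and Acads, Mlycd and Ppard at the upper right, and Ucp3 and Angptl4 lie highest.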

How the data were processed

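The members, the wider lists, the rules and most alternatives were chosen with earlier results of these data known. The authors deposited 1 table of 15 libraries; TopHat2 2.1.0 (alignment to mm10, GRCm38), HTSeq (counting) and edgeR (conversion) are named in the submitters' processing notes and design text. The labels call the deposited unit RPKM, but the values are CPM: 222090 of 222090 were whole reads at a step common to genes of any length, within 0.01 reads. The sources do not say whether counting was stranded, which leaves genes overlapping another uncertain. Besides the overlaps named above, Acadvl shares exon positions with Dvl2, Echs1 with Paox and Hadha with Garem2, all on the opposite strand. Acsl1 does so with Gm45244 and Etfdh with 4930579G24Rik, also on the opposite strand. Etfb overlaps Gm45233 and Mir7051 on the same strand. The weekly calls of Acadvl, Echs1, Hadha and Etfb carry this limit. Of 14806 rows 534 named no gene (0.276% to 0.447% of a library's values) and were left out.

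The main test was limma 3.58.1 on log2(CPM + 0.5) (R 4.3.3, empirical Bayes with trend), all 15 libraries in 1 fit with group only, on genes with at least 1 CPM in at least 5 libraries, with Benjamini-Hochberg adjustment and a threshold of 0.05. Fold changes on this scale understate changes of low genes. The plan assumed RPKM, and the same test was used on CPM. Alternatives were TMM scaling and a quasi-likelihood test on recovered reads (edgeR 4.0.16), DESeq2 1.42.0, other pseudocounts, no filter, fits of 2 groups, array weights, a replicate block and libraries left out. The test was checked on simulated data with a common spread in each group and no outlying library or shift of the whole table. That check does not cover such features of the real data. Named genes were all members, with values by library for those that passed in any comparison and, added after values were seen, for Mlycd, Pdk4 and Ucp3, and from each wider list the 2 genes of smallest p in weekly and in daily against vehicle. Positions and GC came from GENCODE M21 (GRCm38), and promoter windows from RefSeq (GRCm38.p6). Depth limits cover counting error only.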

Additional observations from a re-analysis of the deposited data

Results flagged for a closer look

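In 4 of 96 groups of 5 values, a single library lay far from the other 4 by Dixon's test, and chance flags about 1 in 20 groups. Ucp3 in weekly 4 was 191 CPM, where the remaining weekly libraries had 62.3 to 92.2 CPM. Mlycd in daily 3 was 31.1 CPM, against 62.4 to 67.9 CPM in the other daily libraries. In vehicle 2, Slc27a1 was 77.7 CPM, against 85.7 to 87.0 CPM in the other vehicle libraries. Ppargc1a in vehicle 5 was 47.7 CPM, against 41.8 to 43.5 CPM in the others.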

How the results depend on the processing

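The 63 single-gene changes followed had a limma p under 0.05, either unadjusted as deposited or adjusted with TMM scaling. Through 28 alternative settings they gave 1764 values. Of these 1466 kept their direction and side of the threshold, 181 lost the threshold, 117 gained it and 0 reversed. The choice left out the weaker changes, so the lack of reversals holds for the 63 only. Of the 13 weekly calls, 7 held in 27 of 28 settings (Lpl, Angptl4, Acadvl, Acads, Echs1, Hadha and Etfb), the exception being vehicle averaged to 1 sample. Changes that were not called changed sign in some setting in 7 of 19 genes in weekly, 3 of 30 in daily and 5 of 7 in daily against weekly, so the sign of an uncalled change is a description of its setting only.

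The numbers of genes called in weekly against vehicle, daily against vehicle and daily against weekly were 13, 2 and 25. Averaging vehicle to 1 sample (limma, with that lone sample assumed to vary like the other groups) did not move the log2 changes. The calls against vehicle did not hold in it, where hardly any gene of the whole table passed against vehicle. Fewer calls held in daily against weekly, among these genes and over all genes, and the cause was not tested. Without weekly 4 and daily 3 the first count became 25 and the second 10, and with TMM scaling as well 20 and 14. The shares of all genes also moved. Without the 2 libraries 20.3% rose and 3.63% fell in weekly, and 11% and 6.36% in daily. With TMM scaling as well the shares were 9.04% and 8.17%, and 10.6% and 9.84%. TMM scaling gave 5 in daily and 13 in daily against weekly, and median centring 5 and 12. Of all genes, TMM scaling called 5.61% risen and 3.47% fallen in daily, and 2.08% and 2.64% in daily against weekly. Median centring called 4.62% and 4.13%, and 2.32% and 2.26%. Fits of only the 2 groups compared gave 13 in daily and 9 in daily against weekly. Those fits called 4.89% of all genes risen and 7.09% fallen in daily, and 0.121% and 1.53% in daily against weekly. In daily against vehicle edgeR gave 5, DESeq2 8 and array weights 10. The shares of all genes risen and fallen were 5.88% and 3.59%, 6.54% and 4.81%, and 3.17% and 5.33%. Leaving out 1 library at a time gave 7 to 21 in weekly, 1 to 11 in daily and 17 to 26 in daily against weekly. Over those fits, 3.93% to 14.2% of all genes rose and 0.664% to 1.83% fell in weekly. In daily 1.2% to 4.19% rose and 1.21% to 6.4% fell. In daily against weekly the shares were 0.293% to 1.22% and 3.42% to 12.3%. The cause of these moves was not tested beyond the samples and scaling each changes.

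With a replicate block the counts were 13, 1 and 25, and Eci2 lost the daily call (-0.55, limma adjusted p = 0.0541). The shares of all genes risen and fallen were 6.75% and 1.05%, 1.64% and 1.88%, and 0.398% and 6.61% in the same order. No pairing by replicate number is stated in the labels. Deviations of same-numbered libraries correlated at -0.03 to 0.15 over 15 pairs, 1 of them over 0.1. Vehicle libraries varied so little that pairs holding one could hardly show a pairing. Between weekly and daily the values were 0.15, -0.03, 0.00, 0.09 and -0.01 for replicates 1 to 5, too few to exclude it. Depth limits the lowest genes most, with Ppara at 6.57 CPM in its lowest vehicle library against 1.08 CPM for 3 reads in the shallowest library.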
